A study of Rattus norvegicus with 12 samples.

Results

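The comparison described here is of stretched with unstretched rat cardiomyocytes that had all received an siRNA against Wnt5a. It uses 6 of the 12 RNA sequencing libraries of the series, 3 with cell stretch and 3 without, and these were picked by the treatment in the labels and by no measured value. The cells were ventricular cardiomyocytes, the contractile cells of the lower heart chambers, from neonatal rats of the Wistar strain. The other 6 libraries received a control siRNA, 3 with and 3 without stretch, and serve as the reference for the stretch response. The 4 groups are named by stretch and siRNA, so that unstretched control is control siRNA without stretch. The sources used here do not give how or for how long the cells were stretched, the siRNA sequences or the number of animals behind each library. Nothing in the labels ties the replicate numbers to separate cultures, and the p-values therefore reflect only how far these libraries differ among themselves, which may be technical variation.

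An siRNA is a short double-stranded RNA that directs the degradation of a matching transcript. Wnt5a is a secreted ligand that binds Frizzled and Ror receptors and signals mostly without beta-catenin, through small GTPases, kinases and calcium. Stretch of cultured cardiomyocytes is known for inducing immediate early genes, the natriuretic peptides and fetal isoforms of contractile proteins, and for acting through YAP with TEAD factors and through MRTF with SRF.

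Expression is given in FPKM, fragments scaled for transcript length and for library size, as the authors deposited it. The median ratio of each library to the geometric mean of all 12 lay between 0.9949 and 1.0165. Of 17312 gene symbols, 10518 reached at least 1 FPKM in at least 3 of the 12 libraries and were tested. Summed over genes, FPKM was between 575161 and 607276 in the unstretched and between 619742 and 659933 in the stretched Wnt5a siRNA libraries. Log2 changes are differences between group means of log2(FPKM + 1), given ± SE, and adjusted p-values are from limma with Benjamini-Hochberg adjustment over the 10518 genes, with all 12 libraries in 1 model. A gene is said to be called, to rise or to fall when its adjusted p was under 0.05. Values of 3 libraries are in the order of replicates 1, 2 and 3. Stretched control 3 stood apart from its group, at −3.99 on the second principal component against 25.15 and 24.76 for its replicates. It is not one of the libraries compared here, but it enters the common estimate of the spread and every comparison with control siRNA, and the counts of such comparisons are given with and without it.

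With Wnt5a siRNA, stretch changed 1686 genes (16.0% of those tested). Of these, 888 rose (8.44%) and 798 fell (7.59%). Counts of list members after Wnt5a siRNA are to be read against these shares. Changes of at least 2-fold on the log2(FPKM + 1) scale were made by 87 of the rising genes (0.827%) and 39 of the falling genes (0.371%). The 3 stretched and the 3 unstretched libraries did not overlap for 4281 genes (40.7%). The larger summed FPKM of the stretched libraries bears on the split between rises and falls. When each library was scaled to the same sum (TPM scaling), the median log2 change of all genes was −0.119, against −0.007 with FPKM as deposited. With that scaling 502 genes rose and 1776 fell, so that 22% of the called genes were higher against 52.7% with FPKM as deposited. Without stretched control 3 in the model, 2625 genes were called. The count was 945 without unstretched Wnt5a siRNA 1, 1114 without unstretched Wnt5a siRNA 3, 849 without stretched Wnt5a siRNA 1 and 1073 without stretched Wnt5a siRNA 2.

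The siRNA target Wnt5a had 6.15, 4.60 and 6.81 FPKM in the unstretched and 6.22, 5.88 and 5.56 FPKM in the stretched Wnt5a siRNA libraries. The ranges overlapped, and the log2 change was 0.02 ± 0.14 (95% interval −0.28 to 0.32, adjusted p = 0.95). In the control siRNA libraries Wnt5a was at 12.3, 10.4 and 11.6 FPKM without stretch and at 6.52, 5.66 and 8.22 FPKM with stretch. All 3 unstretched Wnt5a siRNA libraries thus lay below all 3 unstretched control libraries, whereas the stretched libraries of both siRNAs overlapped, so under stretch the target transcript gave no check of the siRNA labels. The 2 siRNAs differed in this change (difference 0.70, adjusted p = 0.024), but that difference missed the threshold without unstretched control 1 (adjusted p = 0.051), unstretched control 3 (0.056), stretched control 1 (0.052), unstretched Wnt5a siRNA 2 (0.055) or stretched Wnt5a siRNA 1 (0.053), and passed without stretched control 3 (0.0048).

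The natriuretic peptides, hormones released by stressed cardiomyocytes, did not pass the test for stretch after Wnt5a siRNA. Nppa, the atrial peptide precursor, was at 5693, 9162 and 3415 FPKM without stretch and at 2921, 4141 and 1976 FPKM with stretch. The stretched library was lower in each numbered pair, but the groups overlapped and the change did not pass the test (log2 change −0.97 ± 0.35, adjusted p = 0.081). It passed with TPM scaling (adjusted p = 0.035), after quantile normalization (0.012), without stretched control 3 (0.048), without unstretched Wnt5a siRNA 3 (0.027) and with the replicate number as a block in only the 6 libraries compared (0.00022), a fit chosen after seeing the data, but not with the block in all 12 (0.088). Nppb, the B-type precursor, was at 1074, 1519 and 560 FPKM without and at 1163, 1694 and 642 FPKM with stretch (log2 change 0.16 ± 0.39, 95% interval −0.68 to 1.0, adjusted p = 0.82). Under control siRNA the mean of Nppa went from 1495 to 8177 FPKM and that of Nppb from 698 to 3386 FPKM, and in both cases all stretched libraries lay above all unstretched ones.

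Myh7, the beta myosin heavy chain of the fetal rodent ventricle, fell with stretch after Wnt5a siRNA. It was at 1729, 1966 and 1446 FPKM without and at 1009, 1292 and 958 FPKM with stretch, with no overlap between the groups (log2 change −0.66 ± 0.13, adjusted p = 0.0057). Under control siRNA the mean of Myh7 rose, from 751 FPKM without to 1031 FPKM with stretch (log2 change 0.46 ± 0.13, adjusted p = 0.010). Its unstretched level with Wnt5a siRNA, 1714 FPKM, was above every library of the control siRNA groups. Acta1, skeletal alpha-actin, was at 196, 255 and 150 FPKM without and at 106, 239 and 91.5 FPKM with stretch, and the groups overlapped (log2 change −0.56 ± 0.54, adjusted p = 0.53, and 0.015 with the replicate block in only the 6 libraries compared).

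Of the stretch-responsive targets of YAP, Cyr61, a matricellular protein, fell from 194, 234 and 162 FPKM to 138, 131 and 95.8 FPKM, with no overlap (log2 change −0.69 ± 0.18, adjusted p = 0.021). It missed the threshold without unstretched Wnt5a siRNA 1 (adjusted p = 0.063), unstretched Wnt5a siRNA 2 (0.083) or stretched Wnt5a siRNA 3 (0.079). Ctgf, its close relative, was at 1023, 1224 and 807 FPKM without and at 773, 851 and 575 FPKM with stretch. Each stretched library was below the unstretched one of its number, but the groups overlapped (log2 change −0.47 ± 0.22, adjusted p = 0.17), and only with the replicate number as a block did the fall pass (adjusted p = 0.024). Ankrd1, a sarcomeric ankyrin repeat protein, was at 2752, 3184 and 1883 FPKM without and 2904, 3431 and 2157 FPKM with stretch (log2 change 0.13 ± 0.22, adjusted p = 0.74). Yap1 itself stayed between 57.5 and 63.9 FPKM in the 6 libraries (log2 change −0.05 ± 0.07, 95% interval −0.19 to 0.09, adjusted p = 0.65).

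**Figure D1:**
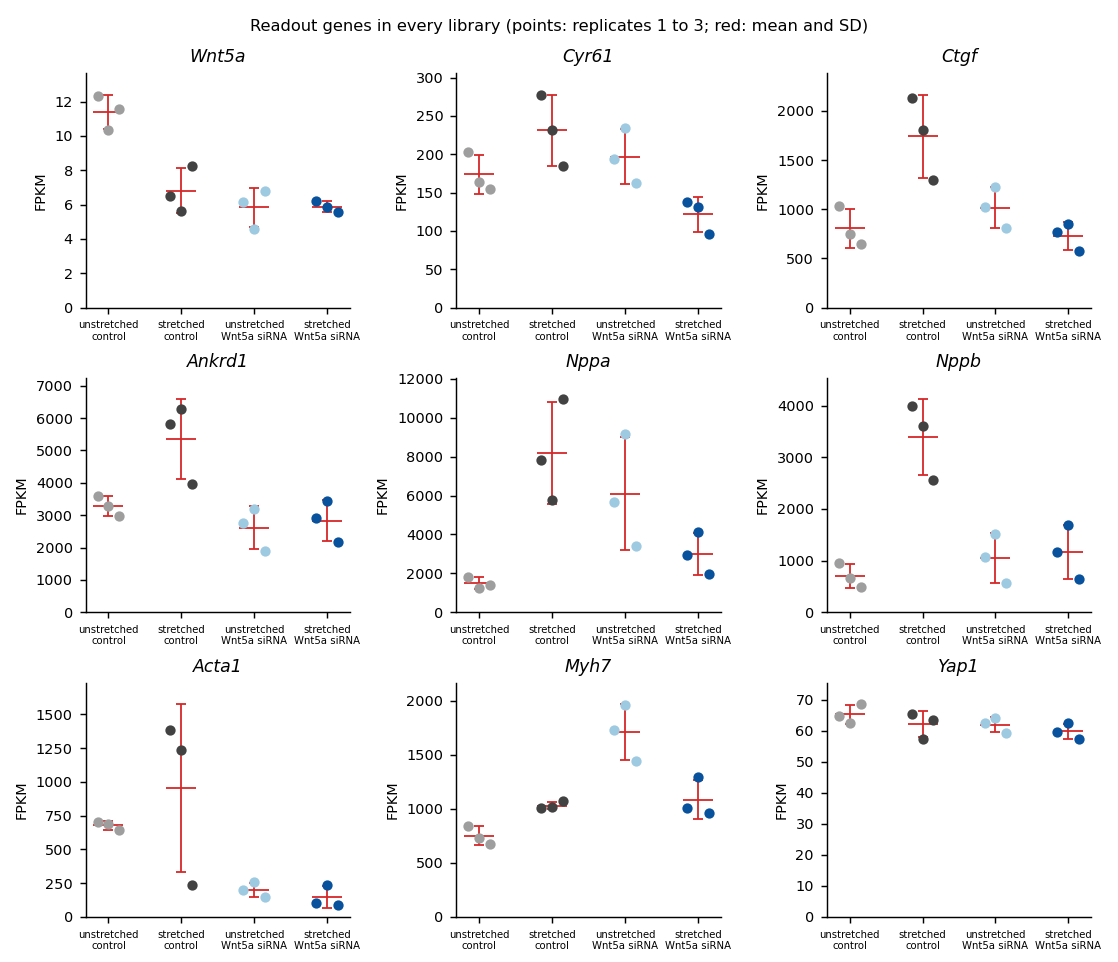
FPKM of Wnt5a and 8 readout genes in every library, by group. Points are replicates 1 to 3 and red bars are the mean and SD of 3 libraries. In the Wnt5a siRNA groups (blue) only Myh7 and Cyr61 differed past the threshold between stretched and unstretched libraries, both lower with stretch, while Nppa and Nppb of stretched control libraries stand above those of unstretched control libraries.

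Of the 12 largest rises with stretch 4 were in matrix genes and 3 in endothelial genes. Fbln1, the matrix glycoprotein fibulin-1, was at 4.21, 4.44 and 5.29 FPKM without and at 25.7, 32.0 and 26.7 FPKM with stretch (log2 change 2.37 ± 0.24, adjusted p = 0.00018). Dcn, the collagen-binding proteoglycan decorin, went from 99.7, 89.9 and 111 to 362, 432 and 383 FPKM (log2 change 1.96 ± 0.14, adjusted p = 2.2e-05). Lum, the related proteoglycan lumican, went from 114, 89.9 and 131 to 345, 311 and 335 FPKM (log2 change 1.57 ± 0.20). The stretched and unstretched libraries of these 3 genes did not overlap, which the rule for naming the largest changes required. Cthrc1, a secreted protein of collagen-rich tissue, rose to 164 ± 8.0 FPKM (SD, n = 3) from 54.8 ± 4.7 FPKM, and Igf1, the growth factor IGF-1, to 41.3 ± 3.8 from 12 ± 2.5 FPKM. Il1rn, the antagonist of the interleukin 1 receptor, rose 3.45-fold in mean FPKM, Lbp, which binds lipopolysaccharide, 3.05-fold, and the imprinted noncoding RNA H19 3.01-fold. Tm4sf19, a membrane protein of low level, rose to 7.22 ± 1.08 from 1.39 ± 0.51 FPKM.

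The endothelial genes among the 12 largest rises had low levels. Cdh5, the cadherin of endothelial junctions, was at 3.19, 0.838 and 4.38 FPKM without and at 14.7, 13.3 and 7.79 FPKM with stretch (log2 change 1.86 ± 0.36, adjusted p = 0.0051). Emcn, the endothelial sialomucin endomucin, went from 3.49, 0.277 and 5.06 to 20.0, 10.7 and 9.30 FPKM (log2 change 2.06 ± 0.52, adjusted p = 0.019), and Pecam1, an endothelial adhesion molecule, from 2.07, 0.521 and 3.71 to 12.3, 9.50 and 5.35 FPKM (log2 change 1.78 ± 0.40, adjusted p = 0.011). Unstretched Wnt5a siRNA 2 was the lowest library for all 3. Without it the change of Emcn was 1.39 (adjusted p = 0.0502). Without stretched Wnt5a siRNA 1, Emcn (adjusted p = 0.090) and Pecam1 (0.058) missed the threshold.

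Of the 12 largest falls 4 were in genes known from smooth muscle and 2 in atrial light chains. Myh11, the smooth muscle myosin heavy chain, was at 35.5, 46.8 and 32.4 FPKM without and at 7.25, 6.31 and 8.66 FPKM with stretch (log2 change −2.21 ± 0.18, adjusted p = 4.0e-05). Actg2, a smooth muscle actin, fell from 87.9, 112 and 80.0 to 42.3, 30.2 and 34.8 FPKM (log2 change −1.36 ± 0.21, adjusted p = 0.0018). Lmod1, the smooth muscle leiomodin, was 2.72-fold lower in mean FPKM, and Kcnmb1, the beta subunit of the smooth muscle BK potassium channel, 3.65-fold lower. That no library of these genes overlapped between the groups was again required by the rule for naming them. Myl4, the atrial essential light chain, which the fetal ventricle also makes, fell from 239, 225 and 231 to 109, 95.9 and 79.3 FPKM (log2 change −1.29 ± 0.12, adjusted p = 8.4e-05). Under control siRNA the mean of Myl4 was 59.5 FPKM without and 49.3 FPKM with stretch. Every control library lay below every Wnt5a siRNA library for this gene, stretched or not. Myl7, the atrial regulatory light chain, was at 122, 132 and 116 FPKM without and at 79.2, 29.4 and 25 FPKM with stretch (log2 change −1.64 ± 0.46, adjusted p = 0.030). Stretched Wnt5a siRNA 1 lay apart from its replicates there. The fall of Myl7 missed the threshold when any Wnt5a siRNA library other than that one was left out (adjusted p 0.067 to 0.11). It passed without stretched control 3 (0.0026).

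Corin, the protease that activates the atrial natriuretic peptide, fell from 9.07, 14.2 and 6.44 to 1.86, 2.37 and 2.74 FPKM (log2 change −1.66 ± 0.22, adjusted p = 0.00072). Tgfb3, a ligand of the TGF-beta family, fell from 170, 235 and 145 to 67.6, 64.5 and 62.8 FPKM (log2 change −1.46 ± 0.21, adjusted p = 0.0012). Abcc8, the sulfonylurea receptor of ATP-sensitive potassium channels, was 3.44-fold lower in mean FPKM, Fxyd7, a regulator of the sodium pump, 4.07-fold lower, and Tll1, a metalloprotease that processes matrix and BMP antagonists, 4.21-fold lower. Olr59, named as an olfactory receptor, fell from 5.29 ± 2.56 to 0.787 ± 0.268 FPKM. The plot of the largest changes shows these 24 genes.

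**Figure D2:**
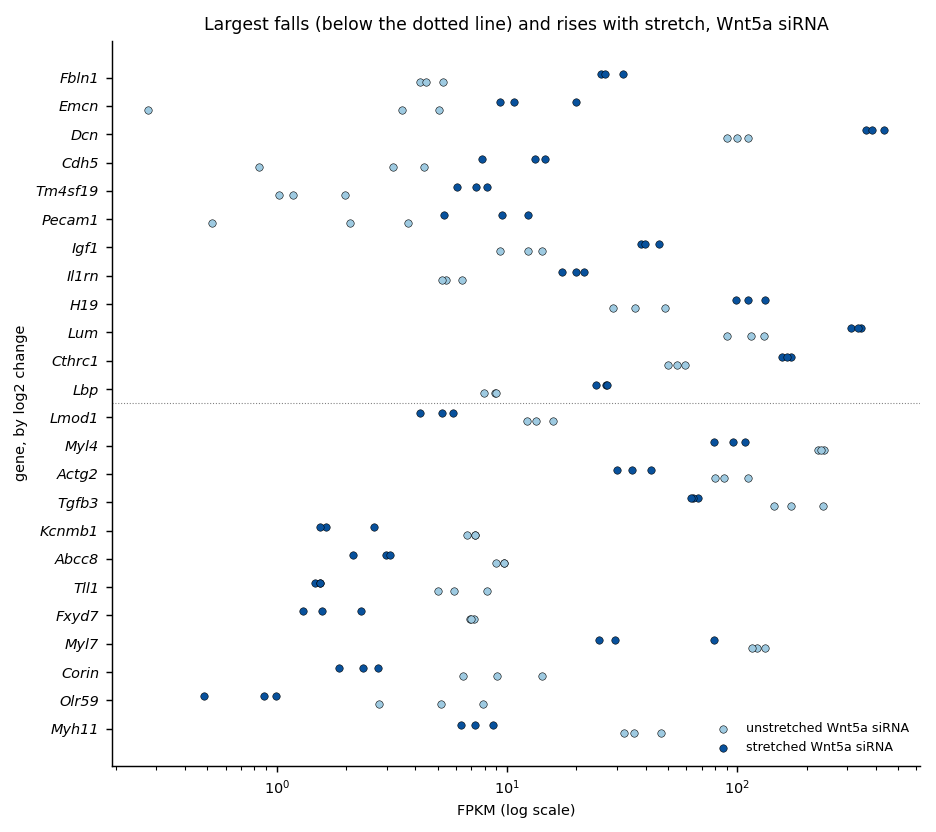
FPKM (log scale) of the 12 largest rises, above the dotted line, and the 12 largest falls, below it, in the 3 unstretched (light blue) and 3 stretched (dark blue) Wnt5a siRNA libraries. The groups of a gene do not overlap because the rule for naming these genes asked for that, and Emcn, Cdh5 and Pecam1 each have 1 unstretched library under 1 FPKM.

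Across the list of extracellular matrix genes, 20 of 31 tested members rose and 0 fell, with a median log2 change of 0.45 against −0.007 over all tested genes. The mean of Mmp2, a matrix metalloprotease, was 229 FPKM without and 458 FPKM with stretch (log2 change 1.0 ± 0.09). Thbs2, the matricellular protein thrombospondin 2, went from 16.8 to 36.2 FPKM and Spp1, osteopontin, from 116 to 302 FPKM. With TPM scaling 15 members rose and 0 fell. Under control siRNA 29 of the 31 rose and 0 fell (27 and 0 without stretched control 3), where 27.5% of all genes rose and 26.8% fell. In bulk RNA, a higher share of a cell type and more RNA per cell cannot be told apart.

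Markers of the labelled cell type were present in every library: the 11 cardiomyocyte markers in the files summed to 19281 to 22545 FPKM without and 18486 to 25699 FPKM with stretch. Of these 11, 0 rose and 4 fell: Ryr2, the calcium release channel, from 123 to 83.1 FPKM, and Myl3, Actn2 and Mybpc3, 3 sarcomere proteins, by 0.50, 0.53 and 0.46 on the log2 scale. All 4 missed the threshold without unstretched Wnt5a siRNA 1 (adjusted p 0.051 to 0.10) or stretched Wnt5a siRNA 1 (0.064 to 0.16), Myl3, Actn2 and Mybpc3 also without unstretched Wnt5a siRNA 2 (0.067 to 0.12) or stretched Wnt5a siRNA 3 (0.086 to 0.094), and Mybpc3 without unstretched Wnt5a siRNA 3 (0.098).

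Fibroblast markers summed to 9177 to 9734 FPKM without and 13388 to 14122 FPKM with stretch, with Col1a2 at 0 in all libraries, and 9 of 15 tested markers rose and 1, Thy1, fell. Dpt, dermatopontin, rose from 53.8 to 116 FPKM and Fap, a fibroblast protease, from 3.63 to 6.96 FPKM. The fibroblast marker sum thus moved with the matrix genes, but the 2 lists share tested members (Col1a1, Col3a1, Dcn, Lum and Postn) and are not independent. The part of fibroblasts in the rise of the matrix genes was not tested.

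Macrophage and leukocyte markers summed to 162 to 173 FPKM without and 388 to 435 FPKM with stretch, with Adgre1 and Cd163 under 1 FPKM in every library, and 13 of 14 tested markers rose and 0 fell. Lyz2, the lysozyme of myeloid cells, was at 76.3, 76.3 and 83.1 FPKM without and at 208, 214 and 236 FPKM with stretch (log2 change 1.47 ± 0.17, adjusted p = 0.00036). Cd68, a lysosomal glycoprotein of macrophages, rose from 18.6 to 37.9 FPKM, and the immune receptor adaptor Fcer1g went from 17.4 to 38.9 FPKM.

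Endothelial markers summed to 128 to 135 FPKM without and 176 to 210 FPKM with stretch, with Vwf under 1 FPKM in every library. Of 11 tested, 7 rose and 0 fell, and with TPM scaling 6 rose and 1 fell. Cldn5, a claudin of endothelial tight junctions, went from 0.877 to 3.88 FPKM and the receptor Tie1 from 2.08 to 7.13 FPKM. Smooth muscle and pericyte markers moved in both directions: 8 of 13 fell, led by Myh11 and Lmod1, and 2 rose. The rises were in the pericyte genes Kcnj8 (2.26 to 4.21 FPKM) and Rgs5 (51.7 to 83.4 FPKM, adjusted p = 0.051 without stretched Wnt5a siRNA 1). Pericyte genes did not move together, since Cspg4, the pericyte proteoglycan NG2, was among the falls (log2 change −0.77, adjusted p = 0.017). Mcam of the same list fell by 0.62 (adjusted p = 0.011). The sum of the 13 markers, dominated by Acta2 and Tagln, was 4675 to 6836 FPKM without and 3470 to 4004 FPKM with stretch. Of the 6 epicardial and mesothelial markers 1 rose and 1 fell. The rise was in Aldh1a2, a retinoic acid synthesizing enzyme, from 3.48 to 7.81 FPKM. The sum of these markers was 24.4 to 28.8 FPKM without and 34.4 to 40.3 FPKM with stretch. Sox10, Ngfr and Gap43 of the Schwann cell and neuronal markers, and the erythroid genes Alas2 and Slc4a1, were under 1 FPKM in every library.

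**Figure D3:**
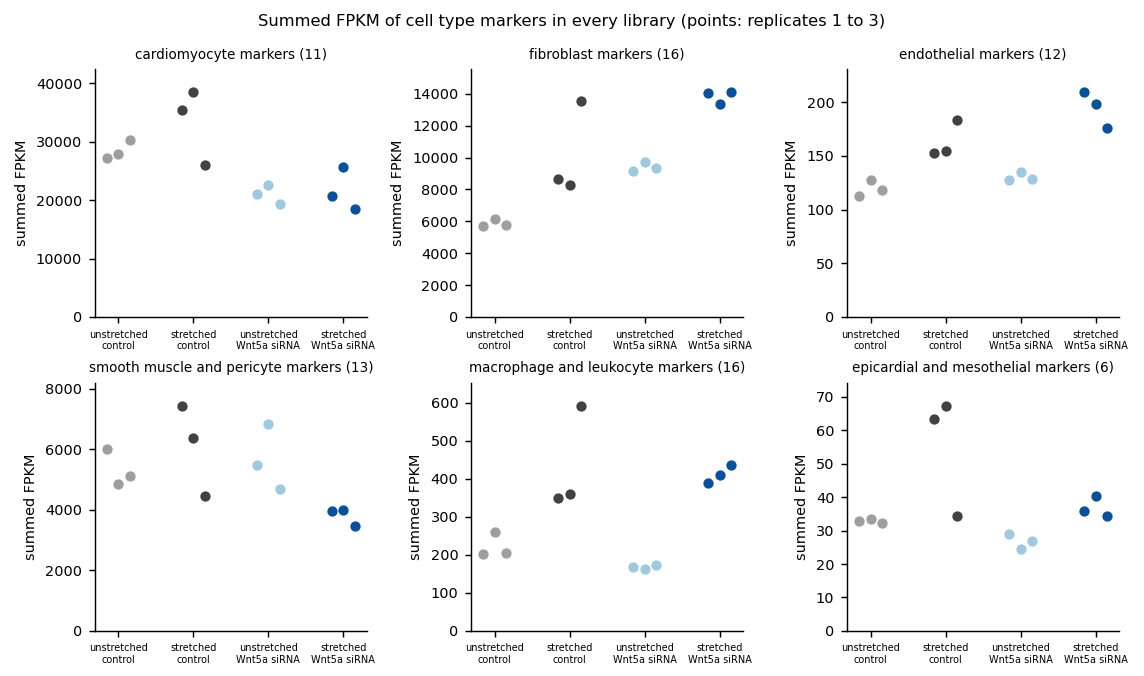
Summed FPKM of 6 lists of cell type markers in every library, by group (number of markers in brackets, points are replicates 1 to 3). Between unstretched and stretched Wnt5a siRNA libraries the fibroblast, endothelial, macrophage and epicardial sums are higher, the smooth muscle sum is lower and the cardiomyocyte sums overlap. Stretched control 3 lies above its replicates for fibroblast, endothelial and macrophage markers and below them for the other lists.

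SRF, with its coactivator MRTF, drives genes of the actin cytoskeleton and smooth muscle in response to actin polymerization. Of 25 tested targets on that list, 0 rose and 9 fell with stretch after Wnt5a siRNA, with a median log2 change of −0.26. The smooth muscle marker sum fell in the same libraries, several of the targets are smooth muscle genes, and the part of that cell type was not tested. The CArG box, searched in promoters like the motifs below, was found in 3 of 21 targets with a promoter. It was in 0 of the 6 that fell and 3 of the 15 others. Mylk, the myosin light chain kinase, was at 23.3, 26.8 and 22.6 FPKM without and at 13.9, 11.4 and 12.9 FPKM with stretch (log2 change −0.88 ± 0.09, adjusted p = 0.00020). Tpm2, beta-tropomyosin, fell from 1104, 1296 and 976 to 552, 540 and 544 FPKM (log2 change −1.03 ± 0.12, adjusted p = 0.00032). Under control siRNA 9 of the 25 rose and 6 fell (12 and 6 without stretched control 3), and the change with Wnt5a siRNA was the lower one for 13 (17 without stretched control 3), where 12.1% of all genes were lower by this test of the difference.

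Sarcomere genes fell in 10 of 30 tested cases and rose in 0, with a median of −0.29. Myh7b, a slow myosin heavy chain, fell from 22.6, 18.2 and 26.0 to 6.99, 11.3 and 11.2 FPKM, and Myom1, the M-band protein myomesin 1, from 129 to 87.4 FPKM. Vcl, vinculin, which ties actin to adhesions and to the intercalated disc, fell from 278 to 180 FPKM and was the single called gene among 22 stretch sensor and disc genes. In that list 5 fell and 1 rose without stretched control 3 in the model, 6 fell with TPM scaling, and 2 fell and 1 rose with the replicate block. Of 27 integrin and focal adhesion genes 5 fell, Vcl among them, and 1 rose, and of 27 cytoskeletal genes 4 fell and 1 rose. Vash2, a tubulin carboxypeptidase, fell from 14.8 to 9.16 FPKM. Under TPM scaling 12 integrin and 8 cytoskeletal genes fell and 0 rose.

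Electrical and calcium genes fell more often than they rose. Of 29 ion channel and connexin genes, 11 fell and 2 rose, with a median of −0.40. Trpc6, a cation channel of the TRP family, was at 16.7, 18.0 and 13.8 FPKM without and at 8.29, 6.25 and 5.33 FPKM with stretch (log2 change −1.18 ± 0.14, adjusted p = 0.00032). Kcnj11, the pore of the ATP-sensitive potassium channel, fell from 16.3, 13.9 and 16.1 to 7.96, 7.48 and 9.16 FPKM (log2 change −0.84 ± 0.12), and Kcnj12, an inward rectifier, from 5.50 to 2.57 FPKM. Of 30 calcium handling genes 8 fell and 0 rose. Cacna1c, the pore of the cardiac L-type calcium channel, fell from 32.6, 29.5 and 35.6 to 18.3, 20.3 and 22.5 FPKM (log2 change −0.65 ± 0.09, adjusted p = 0.0011). The T-type channels Cacna1h and Cacna1g fell by 0.86 and 0.63 on the log2 scale, and Itpr1, the inositol trisphosphate receptor, by 0.67.

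The same channels fell further under control siRNA: Cacna1c by 1.74 and Kcnj11 by 1.71 on the log2 scale, and the difference between the responses passed the test for both (1.08 ± 0.13, adjusted p = 0.0010, and 0.87, adjusted p = 0.0045). Of 24 cardiac transcription factors 4 fell and 0 rose after Wnt5a siRNA against 15 and 0 under control siRNA (14 and 3 without stretched control 3, where 8 and 0 were called after Wnt5a siRNA). Prox1 fell from 10.4 to 5.91 FPKM, Mef2d from 53 to 36.9 FPKM and Tbx5 from 13.9 to 8.70 FPKM. Irx4, a ventricular factor, was at 36.9, 26.5 and 47.1 FPKM without and 22.4, 20.5 and 26.8 FPKM with stretch, and missed the threshold without unstretched Wnt5a siRNA 1 (adjusted p = 0.079) or 3 (0.084) and without stretched Wnt5a siRNA 1 (0.086) or 2 (0.091). The change with Wnt5a siRNA was the higher one for 9 of these factors and the lower one for 0 by the test of the difference (11 and 4 without stretched control 3), where 11.7% of all genes were higher by that test.

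Genes of the unfolded protein response, by which cells expand the folding machinery of the endoplasmic reticulum, rose together. Of 33 tested members 21 rose and 0 fell, with a median of 0.34, and with TPM scaling 14 rose and 0 fell. Hspa5, the main chaperone of the endoplasmic reticulum, was at 491, 476 and 470 FPKM without and at 794, 896 and 700 FPKM with stretch (log2 change 0.73 ± 0.09, adjusted p = 0.00051). Creld2, a stress-induced resident of that compartment, went from 25.5, 26.3 and 25.2 to 44.2, 48.1 and 37.3 FPKM (log2 change 0.72 ± 0.13, adjusted p = 0.0029). Sec61a1, the translocon pore, rose from 97.9 to 132 FPKM, Dnajc3, a co-chaperone, from 54.8 to 77.2 FPKM, and Xbp1, a transcription factor of the response, from 76.0 to 103 FPKM. The groups did not overlap for any of these 5, as was the case for 40.7% of all tested genes. Under control siRNA 29 of the 33 rose (30 without stretched control 3), and the change with Wnt5a siRNA was the lower one for 14 by the test of the difference (16 without stretched control 3). For Hspa5 the responses were 0.73 and 1.02, and the difference did not pass (−0.30, adjusted p = 0.11, and −0.35, adjusted p = 0.047 without stretched control 3).

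Many genes of this response carry the endoplasmic reticulum stress element, a CCAAT box followed after a fixed gap by CCACG, to which NF-Y and ATF6 are known to bind. The 19 base form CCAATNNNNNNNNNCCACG was searched on both strands in the 250 bases before the RefSeq start (assembly GRCr8, matched by symbol). It was found in 21 of 27457 promoters (0.0765%) and in 16 of the 8568 tested genes with a promoter (0.187%), of which 9 rose and 0 fell. Of 26 list members with a promoter 8 held it (Hspa5, Hsp90b1, Calr, Canx, Dnajc3, Creld2, Derl3 and Xbp1), all 8 among the 18 that rose. A match describes the letters and is no evidence of binding. The 150 bases before the start of 4 of these genes are printed as examples with 1 match within that stretch, with the element in capitals and the strand of the gene. They lie at chr3:38452866-38453015 (Hspa5), chr14:84604473-84604622 (Xbp1), chr15:102432517-102432666 (Dnajc3) and chr7:121789234-121789383 (Creld2), all on the plus strand, and in Creld2 the element is on the opposite strand.
Hspa5: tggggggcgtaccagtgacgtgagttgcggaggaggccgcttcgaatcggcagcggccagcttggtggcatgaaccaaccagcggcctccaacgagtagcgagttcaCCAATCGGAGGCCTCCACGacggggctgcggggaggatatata
Xbp1: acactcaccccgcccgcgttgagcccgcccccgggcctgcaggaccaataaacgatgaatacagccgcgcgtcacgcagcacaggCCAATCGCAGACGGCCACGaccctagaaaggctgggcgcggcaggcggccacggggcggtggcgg
Dnajc3: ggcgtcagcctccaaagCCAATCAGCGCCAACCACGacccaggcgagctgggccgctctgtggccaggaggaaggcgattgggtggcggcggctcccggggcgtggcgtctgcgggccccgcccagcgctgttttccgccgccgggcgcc
Creld2: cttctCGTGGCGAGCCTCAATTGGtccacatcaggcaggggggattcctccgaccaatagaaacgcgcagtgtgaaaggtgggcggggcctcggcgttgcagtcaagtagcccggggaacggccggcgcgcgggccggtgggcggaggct

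The element sat between 43 and 25 bases before the start in Hspa5, 65 and 47 in Xbp1, 133 and 115 in Dnajc3 and 145 and 127 in Creld2. These 4 genes rose by 0.43 (Xbp1) to 0.73 (Hspa5) on the log2 scale. Hsp90b1, which holds 2 copies, Calr and Canx, 3 abundant chaperones with the element, rose by 0.40, 0.31 and 0.34, and missed the threshold after quantile normalization (adjusted p 0.10 to 0.12) and without stretched Wnt5a siRNA 2 (0.051 to 0.084). Calr and Canx also missed it with TPM scaling (0.072 and 0.12). Without unstretched Wnt5a siRNA 3, Calr (0.058) and Canx (0.066) also missed it, and Canx did so without any of the other unstretched libraries or stretched Wnt5a siRNA 1 (0.052 to 0.061). Derl3, which takes part in the export of misfolded proteins, rose from 2.53 to 5.62 FPKM.

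Of 36 ATF4, amino acid and tRNA synthetase genes 7 rose and 0 fell, and with TPM scaling 1 rose. Slc3a2, the heavy chain of amino acid exchangers, went from 130 to 160 FPKM, and Nars, an aminoacyl-tRNA synthetase, from 109 to 136 FPKM (adjusted p = 0.054 with TPM scaling). Ribosomal protein genes rose in 51 of 52 tested cases, with a median of 0.43. With quantile normalization 18 of the 52 rose and with TPM scaling 45, with 0 falls under either. These genes have many near-identical pseudogenes, and the sources used here do not give how shared reads were counted. Under control siRNA 52 of 52 rose, and 1 differed between the siRNAs by the test of the difference, with and without stretched control 3.

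Of 35 proteasome genes 5 rose and 0 fell, where 8.44% of all genes rose and 7.59% fell. With TPM scaling 1 proteasome gene rose and 2 fell. Psmb4, a subunit of the catalytic core, had means of 188 FPKM without and 241 FPKM with stretch (log2 change 0.35 ± 0.06). Of 31 cytosolic chaperone genes 2 rose, Hspa8 and Cct5, but with TPM scaling 0 rose and 3 fell, and neither gene was called in that scaling or after quantile normalization (adjusted p 0.10 to 0.46). Hspa8 missed the threshold without any 1 of the 6 libraries other than stretched Wnt5a siRNA 3 (0.051 to 0.11) and Cct5 without any 1 of the 6 (0.073 to 0.17). Cct5 also missed the threshold with the replicate number as a block (adjusted p = 0.057). Both lists responded to stretch more often under control siRNA, with 30 of 35 and 23 of 31 members higher (31 and 27 without stretched control 3). The difference itself passed for 18 proteasome genes (21 without stretched control 3) and 14 chaperones (23 without it) with the lower change after Wnt5a siRNA, and for 2 and 1 with the higher one.

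Lysosomal genes rose with stretch after Wnt5a siRNA. Of 33 lysosome and autophagy genes 14 rose and 1, the autophagy kinase Ulk1, fell, and with TPM scaling 9 rose and 4 fell. Ctsd, the lysosomal aspartic protease cathepsin D, was at 292, 288 and 318 FPKM without and at 459, 469 and 479 FPKM with stretch (log2 change 0.65 ± 0.07, adjusted p = 0.00027). Lamp2, a lysosomal membrane protein, went from 129, 123 and 132 to 190, 179 and 186 FPKM (log2 change 0.53 ± 0.07, adjusted p = 0.00061). Ctsl and Ctsa, 2 further lysosomal hydrolases, rose from 379 to 551 FPKM and from 170 to 227 FPKM. No library overlapped between the groups for these 4, as was the case for 40.7% of all tested genes. Under control siRNA 5 of the 33 rose and 11 fell (7 and 11 without stretched control 3). For Ctsd that change was 0.09 and for Lamp2 0.04, and the differences passed the test (0.56, adjusted p = 0.0038, and 0.49, adjusted p = 0.0054). The unstretched levels also differed between the siRNAs. Ctsd had means of 299 FPKM with Wnt5a siRNA and 396 FPKM with control siRNA without stretch, and 469 and 421 FPKM with stretch. For Lamp2 these means were 128 and 154 FPKM without and 185 and 158 FPKM with stretch. In all, 13 members were higher by the test of the difference (18 without stretched control 3) and 0 lower. The macrophage marker sums above rose in the same libraries, and their part in the lysosomal rise was not tested.

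The CLEAR element, known to be bound by TFEB and its relatives at lysosomal genes, has the core TCACGTGA, which reads the same on both strands and contains an E-box. The core was found within 250 bases before the start in 0.743% of all promoters and in 135 of the tested genes (1.58%). Of these 135 genes 14 rose (10.4%) and 9 fell (6.67%), near the 8.44% and 7.59% of all tested genes. Of 24 lysosome members with a promoter 3 held it, Lamp1, Ctsd and Atp6v0d1, all among the 10 that rose. Their 150 bases before the start are printed to show the core, in capitals, near the start. They lie on the minus strand at chr1:206968822-206968971 (Ctsd), chr16:83075064-83075213 (Lamp1) and chr19:50357249-50357398 (Atp6v0d1).
Ctsd: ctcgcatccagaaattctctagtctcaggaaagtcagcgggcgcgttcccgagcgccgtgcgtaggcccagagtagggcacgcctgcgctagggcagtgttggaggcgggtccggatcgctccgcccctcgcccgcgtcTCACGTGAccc
Lamp1: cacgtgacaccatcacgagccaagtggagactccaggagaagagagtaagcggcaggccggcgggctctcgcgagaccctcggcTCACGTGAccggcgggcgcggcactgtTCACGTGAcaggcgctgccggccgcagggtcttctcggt
Atp6v0d1: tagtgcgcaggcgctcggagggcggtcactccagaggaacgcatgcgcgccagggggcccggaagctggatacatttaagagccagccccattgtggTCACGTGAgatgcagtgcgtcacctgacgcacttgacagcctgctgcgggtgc

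Lamp1, a lysosomal membrane glycoprotein with 2 copies of the core, rose to 439 ± 2.6 FPKM (SD, n = 3) with stretch, from 349 ± 8.8 FPKM. After quantile normalization it missed the threshold by limma (adjusted p = 0.060). Atp6v0d1, a subunit of the lysosomal proton pump, rose to 137 ± 3.9 from 108 ± 2.4 FPKM.

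Of 39 fatty acid oxidation genes 3 rose and 2 fell with stretch after Wnt5a siRNA (with TPM scaling 2 and 5, without stretched control 3 in the model 5 and 6), with a median of −0.07, where 16.0% of all genes were called. The rises were Fabp4, Lpl and Plin2, a lipid droplet protein that was not called with TPM scaling (adjusted p = 0.091). Fabp4, a fatty acid binding protein of adipocytes, macrophages and endothelium, went from 32.2, 30.8 and 26.4 to 78.1, 84.3 and 84.4 FPKM (log2 change 1.44 ± 0.12, adjusted p = 4.0e-05), and Lpl, lipoprotein lipase, from 32.5 to 49.7 FPKM. Ppara, the nuclear receptor that drives fatty acid oxidation, fell from 7.31, 6.27 and 7.47 to 4.12, 4.75 and 4.15 FPKM (log2 change −0.59 ± 0.11, adjusted p = 0.0053). Under control siRNA 34 of the 39 fell and 2 rose (35 and 2 without stretched control 3), with a median of −0.79. For 27 members the change was higher with Wnt5a siRNA by the test of the difference (29 without stretched control 3), and for 0 it was lower.

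Of 43 nuclear genes of oxidative phosphorylation 2 rose and 0 fell (with TPM scaling 1 and 1) against 1 and 22 under control siRNA (2 and 20 without stretched control 3). Ndufa4 went from 183, 187 and 186 to 280, 268 and 233 FPKM (log2 change 0.48 ± 0.08, adjusted p = 0.0025). Under control siRNA its mean was 588 FPKM without and 518 FPKM with stretch, so every Wnt5a siRNA library lay below every control library. Cox8b, the muscle isoform of a cytochrome c oxidase subunit, was at 419, 318 and 546 FPKM without and at 579, 637 and 643 FPKM with stretch, but was not called with TPM scaling (adjusted p = 0.084) or without any 1 of 5 of the 6 libraries (0.072 to 0.11). The mean of Cox8b under control siRNA was 1174 FPKM without and 647 FPKM with stretch. Of 34 genes of the TCA cycle and amino acid oxidation 4 fell and 0 rose (8 and 1 without stretched control 3 in the model), led by Ogdh, the oxoglutarate dehydrogenase, from 109 to 77.8 FPKM. Of 30 glycolysis and glucose genes, of which 6 fell and 3 rose without stretched control 3 and 7 fell and 0 rose with TPM scaling, 2 fell, Gys1, the muscle glycogen synthase, from 38.8 to 30.1 FPKM and Pfkm, the muscle phosphofructokinase, from 91.6 to 60.4 FPKM, and 1, Ldha, lactate dehydrogenase A, rose by 0.21. Ldha was not called without any 1 of the 6 libraries (adjusted p 0.058 to 0.11), with the replicate number as a block (adjusted p = 0.052) or with TPM scaling (0.29), and Pfkm not without unstretched Wnt5a siRNA 1 (0.065) or 3 (0.10) or stretched Wnt5a siRNA 1 (0.11) or 2 (0.095). Of 19 creatine and energy transfer genes 3 fell and 1 rose, Slc25a5, an ADP/ATP carrier, from 347 to 462 FPKM.

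Inflammatory genes rose in a few cases. Ccl2, a chemokine that attracts monocytes, was at 47.1, 45.0 and 53.5 FPKM without and at 95.3, 111 and 89.2 FPKM with stretch (log2 change 1.0 ± 0.12, adjusted p = 0.00032). Il1rl1, the interleukin 33 receptor, rose from 31.7 to 71.6 FPKM, where under control siRNA it rose from 25.2 to 145 FPKM (difference −1.37, adjusted p = 0.0066). Ccl7, a related chemokine, went from 7.5 to 13.2 FPKM. In all, 5 of 25 genes of the inflammatory list rose and 0 fell (with TPM scaling 3 and 3). Of 35 interferon response genes 3 rose and 0 fell (with TPM scaling 2 fell), where 8.44% of all genes rose and 7.59% fell. The rises were Ifitm3 (266 to 410 FPKM), Ifitm2 (190 to 274 FPKM) and Ifit2 (12.1 to 18.8 FPKM). Under control siRNA 23 of the 35 fell with and without stretched control 3, where 26.8% of all genes fell. The change with Wnt5a siRNA was the higher one for 16 by the test of the difference (20 without stretched control 3). Of 36 NRF2 and antioxidant genes 6 rose and 3 fell (with TPM scaling 3 and 6). Ftl1, the ferritin light chain, rose from 988 to 1470 FPKM and Hmox1, heme oxygenase 1, from 17.8 to 30.8 FPKM, while Me1, malic enzyme 1, fell from 53 to 39.7 FPKM. These values are again from libraries with higher macrophage marker sums, whose part was not tested.

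Among 31 Wnt ligands, receptors and antagonists 3 rose and 1 fell (with TPM scaling 3 and 4). Sfrp4, a secreted antagonist, was at 2.45, 1.62 and 2.15 FPKM without and at 8.18, 7.05 and 6.93 FPKM with stretch (log2 change 1.45 ± 0.25, adjusted p = 0.0028). Frzb, another antagonist, rose from 3.42 to 5.72 FPKM and missed the threshold without stretched Wnt5a siRNA 1 (adjusted p = 0.059). Sfrp2 was at 5.28, 5.50 and 5.49 and at 10.3, 10.3 and 10.5 FPKM, and was not called without any 1 of the 6 libraries (adjusted p 0.053 to 0.069). The ligand Wnt4 fell from 1.82 to 0.788 FPKM and was not called without unstretched Wnt5a siRNA 1 (0.11) or 3 (0.12) or stretched Wnt5a siRNA 1 (0.096) or 2 (0.11). Of 11 beta-catenin targets 2 rose, Ccnd1 among them, and 1 fell.

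Of 22 YAP and TAZ targets 2 rose and 4 fell (with TPM scaling 1 and 7, without stretched control 3 in the model 3 and 8), and of 20 Hippo pathway components 1 rose and 3 fell (with TPM scaling 1 and 7). With FPKM as deposited, 8.44% of all tested genes rose and 7.59% fell. Igfbp3, an IGF binding protein, was at 4.89, 5.66 and 7.70 FPKM without and at 21.0, 14.8 and 14.6 FPKM with stretch (log2 change 1.33 ± 0.21, adjusted p = 0.0016), where under control siRNA the change was −0.04 (difference 1.37, adjusted p = 0.0071). Crim1, a membrane protein that binds BMP ligands, fell from 46.7 to 26.7 FPKM. Tead1, a DNA-binding partner of YAP, fell from 72.1, 74.6 and 68.8 to 48.7, 56.8 and 51.0 FPKM (log2 change −0.46 ± 0.09, adjusted p = 0.0043), and Dchs1, a protocadherin upstream of Hippo kinases, rose from 3.78 to 8.02 FPKM.

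Among 33 TGF-beta and BMP pathway genes 6 rose and 3 fell (with TPM scaling 5 and 6). The inhibitors of differentiation, direct targets of BMP signalling, were among the rises: Id2 went from 37.2, 46.2 and 37.1 to 84.3, 81.2 and 80.0 FPKM (log2 change 1.02 ± 0.11, adjusted p = 0.00026) and Id3 from 66.5, 81.7 and 56.8 to 154, 138 and 104 FPKM (log2 change 0.94 ± 0.17, adjusted p = 0.0034). Inhbb, the beta B subunit of activins, rose from 2.85 to 5.24 FPKM. Tgfb3, described above, was among the falls. Of 30 growth factor and cytokine ligands 3 rose and 4 fell, where 8.44% of all genes rose and 7.59% fell. Pdgfa, a platelet-derived growth factor, fell from 37.8 to 25.3 FPKM and Nrtn, neurturin, from 4.16 to 1.46 FPKM.

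Vasoactive genes moved in both directions, 7 of 26 higher and 5 lower. Adrb1, the main cardiac beta-adrenergic receptor, was at 14.9, 13.2 and 15.6 FPKM without and at 8.46, 8.01 and 8.86 FPKM with stretch (log2 change −0.72 ± 0.09, adjusted p = 0.00040). The groups did not overlap, as was the case for 40.7% of all tested genes. Ramp3, which modifies adrenomedullin receptors, rose from 2.18 to 6.89 FPKM, where under control siRNA it rose from 2.27 to 19.3 FPKM (difference −1.26, adjusted p = 0.019).

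Immediate early genes are transcribed within minutes of a stimulus. Of 35 tested after Wnt5a siRNA, 1 rose, Klf4, from 25.5 to 36.8 FPKM, and 0 fell (with TPM scaling 1 rose and 2 fell), against 30 higher under control siRNA (34 without stretched control 3), and the difference was lower for 16 (29 without stretched control 3) and higher for 0. Of 20 ERK feedback genes 2 fell and 0 rose. Of 24 fetal and hypertrophic genes 0 rose and 6 fell, among them Myl4 and Myh7, against 13 higher and 3 lower under control siRNA (15 and 3 without stretched control 3), and the change with Wnt5a siRNA was the lower one for 14 (16 without stretched control 3).

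Of 43 cell cycle genes 3 rose and 1 fell (with TPM scaling 3 and 7), where 8.44% of all genes rose and 7.59% fell with FPKM as deposited. Ccnd1, cyclin D1, was at 51.9, 54.1 and 47.8 FPKM without and at 95.4, 117 and 77.4 FPKM with stretch (log2 change 0.89 ± 0.12, adjusted p = 0.00084), and Cdkn2b, a cyclin-dependent kinase inhibitor, went from 25.5, 26.4 and 24.0 to 50.5, 55.4 and 42.3 FPKM (log2 change 0.93 ± 0.14). Cdk4, the kinase partner of cyclin D, rose from 154 to 196 FPKM. Of 16 circadian genes Arntl, a core activator of the clock, rose from 9.47 to 14.8 FPKM, and 3 fell, with Per3, a repressor, from 17 to 10.5 FPKM. Of 24 p53 targets and 32 sterol and fatty acid synthesis genes 0 were called (with TPM scaling 2 of each fell).

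**Figure D4:**
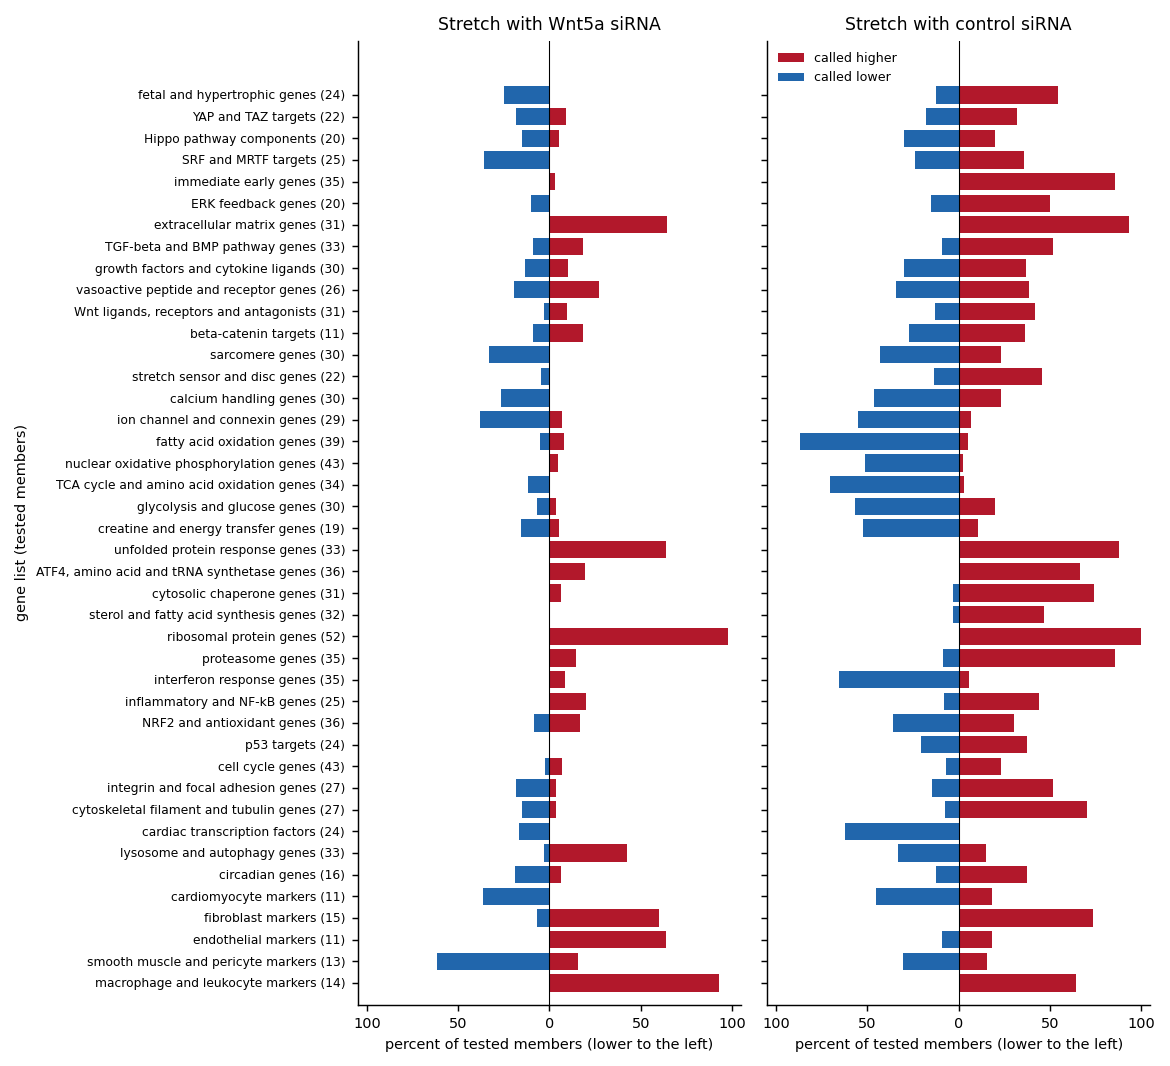
Share of tested members called higher (red, to the right) and lower (blue, to the left) by stretch with Wnt5a siRNA (left panel) and with control siRNA (right panel), for each list with at least 10 tested members (number in brackets). Ribosomal protein, unfolded protein response, matrix and macrophage lists extend to the right in both panels, and the fatty acid oxidation list reaches 34 of 39 members lower only in the right panel.

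The stretch responses with each siRNA share no library and can be set side by side. Of the 888 genes that rose after Wnt5a siRNA, 619 also rose under control siRNA (69.7%, and 21.4% of the 2889 that rose there). Of the 798 that fell, 605 also fell (75.8%, and 21.4% of the 2822 that fell there). Changes in opposite directions were called for 38 genes. Without stretched control 3 these were 818 of 1329, 879 of 1296 and 143 genes. Under control siRNA stretch changed 5711 genes (54.3%), 257 of them at least 2-fold upward (2.44%) and 469 at least 2-fold downward (4.46%), and 6035 genes were called without stretched control 3. The response differed between the siRNAs for 2503 genes (23.8%), and for 2279 of these (91.1%) the change was smaller in size after Wnt5a siRNA. The count of differing genes was 1612 without unstretched control 3 and 1574 without stretched Wnt5a siRNA 3. Without stretched control 3 the response differed for 3638 genes, and 3184 of them (87.5%) had the smaller change after Wnt5a siRNA.

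The largest differences between the responses were in genes with a large change under control siRNA. Stmn4, a stathmin that binds tubulin, was at a mean of 0.342 FPKM in unstretched and 16.9 FPKM in stretched control libraries. With Wnt5a siRNA it was at 23.3, 19.1 and 14.8 FPKM without and at 19.5, 18.8 and 10.8 FPKM with stretch, so its unstretched level was already that of stretched control cells (difference −3.82, adjusted p = 0.0015). Xirp2, an actin-binding protein of the intercalated disc, was at 127, 121 and 90.5 FPKM without and 121, 211 and 86.5 FPKM with stretch after Wnt5a siRNA, against means of 30.7 and 246 FPKM under control siRNA (difference −2.75, adjusted p = 0.0014). Hbegf, a ligand of the EGF receptor, was at 36.5 and 33.1 FPKM against 18.5 and 98.3 FPKM (difference −2.46, adjusted p = 0.0034). Bdkrb2, the bradykinin B2 receptor, Cnn1, the smooth muscle calponin 1, Krt80, a keratin, and Fhl1, a LIM protein of the sarcomere, had differences of −2.89, −2.31, −2.23 and −2.22. The unstretched Wnt5a siRNA mean lay above the unstretched control mean for all 7 of these genes.

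In the other direction, Lrrc39, a protein of the sarcomere M-band, was at 9.85, 6.42 and 13.0 FPKM without and at 9.17, 9.02 and 10.3 FPKM with stretch after Wnt5a siRNA, whereas under control siRNA its mean went from 23.9 to 4.47 FPKM (difference 2.2, adjusted p = 0.0014). Dhrs7c, a dehydrogenase of the sarcoplasmic reticulum, was at 6.89 and 6.85 FPKM against 16.6 and 2.86 FPKM (difference 2.22, adjusted p = 0.0039). Nr0b2, an orphan nuclear receptor that represses transcription, Doc2g, Gstm7, a glutathione transferase, and Fn3k, fructosamine 3 kinase, had differences of 2.35, 2.31, 2.12 and 2.12, and none of these 4 was called after Wnt5a siRNA. Smim5, a small membrane protein, fell after both siRNAs, by 0.72 and by 3.0 (difference 2.27, adjusted p = 0.00099). For all 7 genes the unstretched Wnt5a siRNA mean lay below the unstretched control mean, and the difference passed in the model without stretched control 3.

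**Figure D5:**
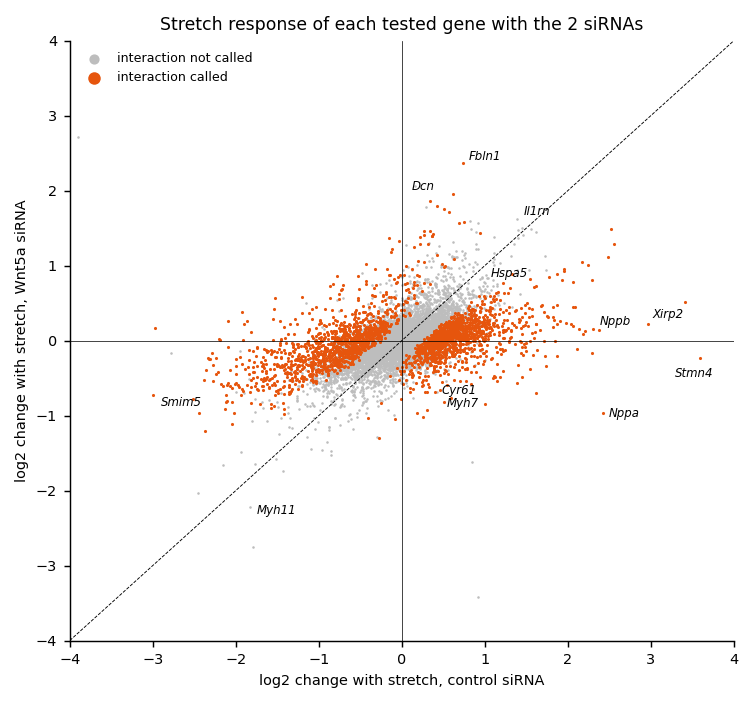
Log2 change with stretch of each of the 10518 tested genes, with control siRNA (horizontal) and with Wnt5a siRNA (vertical). Orange points are the 2503 genes whose response differed between the siRNAs, and the dashed line marks equal responses. Of the orange genes 2279 had the smaller change with Wnt5a siRNA, as did Nppa, Stmn4 and Xirp2, while Fbln1 and Dcn lie above the line.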

How the data were processed

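RNA sequencing of 12 libraries, 4 groups of 3, was analysed from the FPKM values the authors deposited per gene symbol. Libraries were TruSeq Stranded mRNA from miRNeasy total RNA, per the labels' protocols. Per the submitters' processing notes, TopHat2 2.1.1, Bowtie2, Cuffdiff 2.2.1 and rn6 were used. The sources used here do not give the gene annotation or strand setting. Ratios of low values came out whole within 0.03 for 89.8% of 1523 genes, but no counts were recovered and the depth of the libraries is unknown.

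Genes with at least 1 FPKM in at least 3 libraries (10518 of 17312) were tested with limma 3.58.1 (R 4.3.3) on log2(FPKM + 1), which understates the changes of low genes, with 4 group means, a trended prior and Benjamini-Hochberg adjustment (threshold 0.05). Contrasts were stretch with Wnt5a siRNA, stretch with control siRNA and their difference. In simulated data 78% of 1.5-fold and 100% of 3-fold changes were called for stretch with Wnt5a siRNA, with 7 false calls among 185. Those data had 100 changed genes of each size and independent noise with the fitted spread of each gene. They held no library set apart and no link between same-numbered libraries, so these rates need not hold for the real libraries. Deviations from the group means of same-numbered stretched and unstretched Wnt5a siRNA libraries correlated at 0.184, 0.242 and 0.143. The control siRNA pairs were mixed, with 0.249 for pair 1, 0.059 for pair 2 and −0.019 for pair 3. The model of the reported values has no block. Its value with the replicate number as a block is given beside a result where it changes the call. Alternatives were other scalings, filters, a pseudocount of 0.1, the replicate block, no trend, a fold threshold, fewer libraries and each library left out.

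Named genes were the readouts, the 12 largest rises and falls called with no overlap and a higher group mean of at least 5 FPKM, the 8 largest differences each way between siRNAs, and up to 4 called members per list by adjusted p. Some of these are given only as counts, and a few are not reported here. Further called members are named where a count of few genes was spelled out. Members and lists (46, with 1178 of 1323 entries tested) were chosen with earlier results of these data known, and lists got no set test. Promoters are from RefSeq (GRCr8), matched by symbol, and 3 motifs were searched; the CArG box was found in 3 of 21 SRF and MRTF targets, 0 of the 6 that fell and 3 of the 15 others, and in 1.5% of all promoters.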

Additional observations from a re-analysis of the deposited data

Results flagged for a closer look

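The change with stretch differed between Wnt5a siRNA and control siRNA for 2503 genes by limma's test of the interaction, and the genes named above that are among them are given here with the difference, the log2 change with Wnt5a siRNA minus that with control siRNA. The difference was 0.70 for Wnt5a, 1.63 for Fbln1, 1.34 for Dcn, 1.52 for Cdh5, 1.36 for Tm4sf19, 1.15 for Igf1, 0.83 for H19 and 0.89 for Lum. Positive values were also 0.48 for Mmp2, 0.53 for Id2, 0.56 for Inhbb, 0.93 for Myh7b, 1.08 for Cacna1c, 0.87 for Kcnj11, 0.67 for Kcnj12 and 0.50 for Fabp4. Higher changes with Wnt5a siRNA were further 0.62 for Ppara, 0.67 for Ndufa4, 1.43 for Cox8b, 1.51 for Pfkm, 0.43 for Ftl1, 0.25 for Cdk4, 0.80 for Prox1 and 0.75 for Tbx5. To these add 1.35 for Irx4, 0.56 for Ctsd, 0.49 for Lamp2, 0.39 for Ctsa, 0.30 for Lamp1, 0.32 for Atp6v0d1, 1.37 for Igfbp3 and 0.92 for Sfrp2. Further positive values were 0.64 for Adrb1, 0.47 for Dpt, 1.17 for Cldn5, 1.05 for Tie1, 0.47 for Cd68, 2.35 for Nr0b2, 2.31 for Doc2g and 2.27 for Smim5. Further positive values were 2.22 for Dhrs7c, 2.2 for Lrrc39, 2.12 for Fn3k and 2.12 for Gstm7. The difference was negative at −1.09 for Cyr61, −1.58 for Ctgf, −3.38 for Nppa, −2.15 for Nppb, −1.12 for Myh7, −1.02 for Myl4, −0.62 for Tpm2 and −0.43 for Sec61a1. Negative values were also −0.51 for Dnajc3, −0.48 for Hsp90b1, −0.38 for Canx, −0.41 for Nars, −0.38 for Slc3a2, −0.37 for Hspa8, −0.27 for Cct5 and −1.37 for Il1rl1. Lower changes with Wnt5a siRNA were further −0.41 for Me1, −0.98 for Ccnd1, −1.02 for Cdkn2b, −0.51 for Arntl, −1.26 for Ramp3, −3.82 for Stmn4 and −2.89 for Bdkrb2. The remaining negative values were −2.75 for Xirp2, −2.46 for Hbegf, −2.31 for Cnn1, −2.23 for Krt80 and −2.22 for Fhl1. Of these, Cdh5 (adjusted p = 0.066) and Inhbb (0.055) missed the threshold without stretched control 3.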

How the results depend on the processing

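TPM scaling gave 502 genes higher and 1776 lower with stretch after Wnt5a siRNA, 1451 and 4493 under control siRNA, and 1612 with the higher and 815 with the lower change by the test of the difference (66.4% higher). Calls of at least 1.5-fold numbered 553 (314 higher, 239 lower), 2368 (1025 and 1343) and 1338 (758 and 580) for the Wnt5a siRNA response, the control siRNA response and their difference. With the replicate number as a block 1693 genes were called. An alternative chosen after seeing the data, the replicate block with only the 6 libraries compared, gave 2661 (1348 higher, 1313 lower). Leaving out 1 library at a time gave 849 to 2625 genes called after Wnt5a siRNA (493 to 1329 higher, 356 to 1296 lower), where the highest values are those without stretched control 3, and 1574 to 3638 for the difference (760 to 1733 higher, 811 to 1905 lower). Fewer samples were tested in each of these fits. Of 128 named genes 121 were called, 97 of them in every alternative that tested them (16 or 17), and 0 of the called genes changed sign. Of the genes not called, Wnt5a changed sign with TPM scaling (−0.0855) and without 1 library (−0.12 to 0.12), Ankrd1 after quantile normalization (−0.14) and without 1 library (−0.0902 to 0.31), and Nppb after quantile normalization (−0.0848) and without 1 library (−0.24 to 0.53). The replicate block called Ctgf and lost Ldha and Cct5, and changed no other call among the named genes for stretch with Wnt5a siRNA. The depth of the libraries is unknown, so no counting error can be given, and 3 libraries a group limit the precision.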

Other observations

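Stretch changed 20 genes upward after Wnt5a siRNA and downward under control siRNA, and 18 the other way, Myh7 among the latter. The genes named here are outside the rule for naming and were chosen after their values were seen. The first set held 3 lysosomal hydrolases: Tpp1, tripeptidyl peptidase 1, changed by 0.24 and −0.55 on the log2 scale, Gaa, acid alpha-glucosidase, by 0.33 and −0.23, and Acp5, an acid phosphatase, by 0.47 and −0.34. Ednrb, the endothelin B receptor, changed by 0.62 and −0.76. In the second set Kcnk2, the stretch-activated potassium channel TREK-1, changed by −0.48 after Wnt5a siRNA and 0.95 under control siRNA, Synm, the intermediate filament protein synemin, by −0.59 and 0.55, Map1a, a microtubule-associated protein, by −0.42 and 0.83, and Cspg4, the pericyte proteoglycan NG2, by −0.77 and 0.59.

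Of the 224 genes whose response differed and was larger in size after Wnt5a siRNA, 177 were called there, 119 higher and 58 lower, with Cspg4, Synm, Gaa and Acp5 among them. Secreted proteins among the 177 were Ptn, the growth factor pleiotrophin, at 1.40 after Wnt5a siRNA and 0.36 under control siRNA, Cilp, a cartilage matrix protein, at 1.46 and 0.35, and Cpz, a carboxypeptidase, at 1.22 and −0.12. Cacna1s, the skeletal muscle L-type calcium channel, was at −0.77 and −0.005. For each gene named in these paragraphs the difference had an adjusted p under 0.05 by limma with and without stretched control 3.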
